A study of Mus musculus with 4 samples.

Results

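Broad DNA methylation valleys are stretches of several kilobases in which almost no CpG is methylated although the genome around them is. The 384 valleys described here were selected on their measured levels, as runs of at least 5 adjacent autosomal windows of 1 kb. Each window had at least 3 CpGs, at least 10 reads in each of 4 libraries, and a mean level over the 4 libraries under 15%. They held 2292 of the 1711412 windows with enough CpGs and reads (0.134%), and lay on all 19 autosomes. A further 5 runs that overlap Hox genes were left out. Because the rule used the mean of the 4 libraries, the low level inside a valley and the step at its edge are descriptions, and the contrast between the groups is what was compared. The limit of 15% also bounds how large a difference inside a valley can be.

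The cells were mouse embryonic stem cells of an Ogt fl/fl line, in which Ogt, the gene for the enzyme that attaches O-linked N-acetylglucosamine to nuclear and cytosolic proteins, can be deleted. Whole-genome bisulfite sequencing was done on 2 libraries of Ogt iKO cells, kept for 6 days with 4-OHT (4-hydroxytamoxifen), and on 2 control libraries kept for the same time without it. Both groups grew with LIF and serum replacement on inactivated feeder fibroblasts, which were removed by sorting. Only the treated cells were also sorted for YFP, so the drug, the YFP sort and the loss of Ogt cannot be told apart. No label says that replicates were separate cultures or clones, so p-values concern only these libraries. A level is the percentage of reads over CpGs that stayed C after bisulfite treatment, which does not separate 5-methylcytosine from 5-hydroxymethylcytosine.

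In embryonic stem cells, broad valleys are known to lie over genes of developmental transcription factors, where Polycomb complexes bind unmethylated CpG-rich DNA, and over strongly expressed housekeeping genes. TET enzymes oxidise 5-methylcytosine and are known to act at the edges of such regions, and OGT is known to bind TET proteins. The labels state an interest in that interaction and in changes of 5-methylcytosine and 5-hydroxymethylcytosine. From 10 of 19 autosomal genes on a pluripotency list, 12 promoters had enough reads, and 10 of these had a mean level under 15%. The others were at Esrrb (47.0%) and Tfcp2l1 (15.0%, the mean of 60% in iKO replicate 2 and 0% in the other libraries). Promoters of other genes were not set beside these, so the share does not identify the cell type.

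Promoters show the sequence that these valleys are made of. RefSeq promoters of GRCm38.p6 run from 250 bases before to 50 after a gene's start, and 465 of them, from 366 genes, lay wholly inside a valley. 4 of them are printed in lower case with every CpG in capitals, the first pair for the longest valleys with a promoter inside, then the valleys with the largest decrease and the largest increase past the test that hold one. They lie at chr7:137314396-137314695 on the minus strand (Ebf3), chr5:123132580-123132879 on the minus strand (Rhof), chr9:108567387-108567686 on the minus strand (Ndufaf3) and chr17:85620584-85620883 on the plus strand (Six3).
Ebf3: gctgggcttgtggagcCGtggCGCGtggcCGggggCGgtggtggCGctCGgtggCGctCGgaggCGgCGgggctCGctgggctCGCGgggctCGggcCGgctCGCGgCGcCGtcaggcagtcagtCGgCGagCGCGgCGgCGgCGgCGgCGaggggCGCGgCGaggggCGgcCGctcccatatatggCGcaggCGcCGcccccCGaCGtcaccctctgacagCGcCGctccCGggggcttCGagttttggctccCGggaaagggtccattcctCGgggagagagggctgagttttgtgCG
Rhof: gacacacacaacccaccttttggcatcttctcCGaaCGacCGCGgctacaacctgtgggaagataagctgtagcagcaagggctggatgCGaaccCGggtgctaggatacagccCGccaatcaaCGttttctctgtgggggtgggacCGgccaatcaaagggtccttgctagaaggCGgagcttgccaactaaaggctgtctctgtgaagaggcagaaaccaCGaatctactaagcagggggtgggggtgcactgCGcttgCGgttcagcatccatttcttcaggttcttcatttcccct
Ndufaf3: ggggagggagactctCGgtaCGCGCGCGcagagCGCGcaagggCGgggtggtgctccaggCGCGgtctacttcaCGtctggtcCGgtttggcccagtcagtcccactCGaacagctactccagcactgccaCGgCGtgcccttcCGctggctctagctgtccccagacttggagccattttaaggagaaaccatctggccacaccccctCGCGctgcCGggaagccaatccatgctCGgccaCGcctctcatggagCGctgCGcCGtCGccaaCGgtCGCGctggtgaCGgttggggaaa
Six3: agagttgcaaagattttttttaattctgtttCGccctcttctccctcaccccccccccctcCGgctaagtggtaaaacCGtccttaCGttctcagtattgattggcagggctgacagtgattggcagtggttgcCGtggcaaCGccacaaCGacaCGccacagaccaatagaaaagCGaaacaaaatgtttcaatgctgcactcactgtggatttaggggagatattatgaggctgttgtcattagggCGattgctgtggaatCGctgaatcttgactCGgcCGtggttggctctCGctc

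The Ebf3 promoter held 46 CpGs, and 0 of 105 and 0 of 86 reads in the iKO libraries and 0 of 66 and 0 of 48 in the controls were methylated. Counts of 0 allow levels of up to 2.86% in the deepest of these libraries and 6.25% in the shallowest, for counting error only. A read counts once at each CpG it covers, so the counts are not independent and the true limits are higher. The Rhof promoter held 13 CpGs, with 0 of 34, 0 of 25 and 0 of 22 reads methylated and no read in control replicate 2. At Ndufaf3, with 29 CpGs, 0 of 67 and 0 of 54 iKO reads were methylated, against 0 of 97 and 1 of 69 control reads. At Six3, with 14 CpGs, 2 of 39 and 1 of 74 iKO reads were methylated, against 0 of 43 and 0 of 46 control reads. At Ebf3, Rhof and Ndufaf3, at most 1 read was thus methylated in any library that covered the promoter. The zeros at Rhof allow levels of up to 8.82% to 13.6%, for counting error only. Six3 had methylated reads in the iKO libraries alone, the direction of its whole valley, which stood at 5.70% in iKO replicate 1. These counts are too small to tell whether the promoters differed between the groups. Promoters inside valleys had a median of 22 CpGs in 300 bases, close to the 23 of promoters inside shorter low runs and above the 7 of all 31396 autosomal promoters. The letters GGGCGG, the box of Sp and Klf factors, occurred on either strand in 67.3% of valley promoters, 69.7% of those in shorter runs and 36.0% of all. TATAAA occurred in 9.03%, 5.62% and 13.6% of the same sets.

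Most valleys were just long enough to qualify. A length of 5 windows was found for 209, 6 or 7 windows for 123 and 8 or more for 52, and the longest, at Ebf3 and at Ctbp2, spanned 14 windows. A valley held a median of 260 CpGs, and a median of 536 reads in its shallowest and 748 in its deepest library, at 2.96 to 3.46 reads per CpG. The libraries themselves held 77842967 and 69125112 reads over autosomal CpGs in the iKO group and 66716246 and 62619936 in the controls. A protein-coding gene overlapped 355 valleys, with 402 genes in all. One member stands apart: the run at chr17:39843001-39849000, which overlaps Rn18s-rs5, a ribosomal RNA sequence, had 67504 to 70556 reads per library where the next deepest valley had 1757 to 2414. It carried 19.8% to 22.2% of all reads in valleys, so values over valleys are means in which each valley counts once.

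Genes of developmental transcription factors filled many of the valleys. Of 354 autosomal genes on 7 lists of such factors, 74 (20.9%) lay in a valley, against 1.95% of all 20665 autosomal protein-coding genes. They comprised 40 of 132 homeobox genes outside the Hox clusters, 20 of 86 zinc finger and nuclear receptor factors, 5 forkhead genes, 3 Sox genes, 3 basic helix-loop-helix genes, 2 T-box genes and Gata6. A secreted signal, antagonist or receptor of the lists lay in 12 valleys, such as Nodal and Bmp4 (ligands of the TGF-beta family) and the Wnt receptors Fzd5, Fzd7 and Fzd10. None of 57 clustered protocadherin genes lay in one, and 6 of 70 histone genes did.

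Inside the valleys, methylation was slightly lower in the iKO libraries. The mean over valleys was 2.90% and 2.84% in the iKO libraries against 3.57% and 3.27% in the controls. Both iKO libraries were below both controls, a difference of -0.546 percentage points with a pooled SD of 0.153 between replicates (n = 2 libraries per group). Two-sided exact permutation tests of 2 against 2 libraries cannot give a p below 0.333, which is the p here and of every library-level difference below whose groups do not overlap. On the log2 odds scale, which is not squeezed near 0%, the difference was -0.26 (pooled SD 0.07). In mitochondrial DNA, as a measure of unconverted reads, levels were 0.307% and 0.263% in the iKO and 0.264% and 0.253% in the control libraries. This small difference depended on how members were selected. It was -0.114 points, with overlapping groups (exact permutation p = 1), when only the controls had to be under the limit, and -2.09 points when only the iKO libraries had to be. The groups also overlapped with reads pooled over valleys and among the runs of 8 or more windows (exact permutation p = 0.667 for each). With reads pooled but the ribosomal RNA run left out, the difference was -0.40 points and the groups were apart.

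Outside the valleys the difference was far larger. In the 3 windows at each border the mean level was 40.8% and 38.8% in the iKO libraries against 48.4% and 49.4% in the controls, a difference of -9.05 points (pooled SD 1.12). At 10 to 20 kb from the valley it was 56.0% and 53.7% against 62.5% and 65.0%, a difference of -8.93 points (pooled SD 1.68). Over all windows with enough CpGs and reads it was 68.9% and 66.5% against 73.7% and 77.7%, a difference of -8.03 points. The border thus differed by about as much as the flank and the genome at large. The step from border to flank did not separate the groups, at 15.2 and 14.9 points in the iKO and 14.2 and 15.7 points in the control libraries (exact permutation p = 1).

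The step from interior to border was shallower in the iKO libraries, at 37.9 and 36.0 points against 44.8 and 46.1 points in the controls. In log2 odds it was 4.53 and 4.44 against 4.66 and 4.85, a difference of -0.27 (pooled SD 0.11), so the groups stayed apart on both scales. The log2 odds difference was -0.18 without control replicate 2, and it turned, to 0.14, when members were selected on the iKO libraries alone. The step from interior to flank, with a difference of -0.28 in log2 odds, was at -0.13 without control replicate 2.

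**Figure D1:**
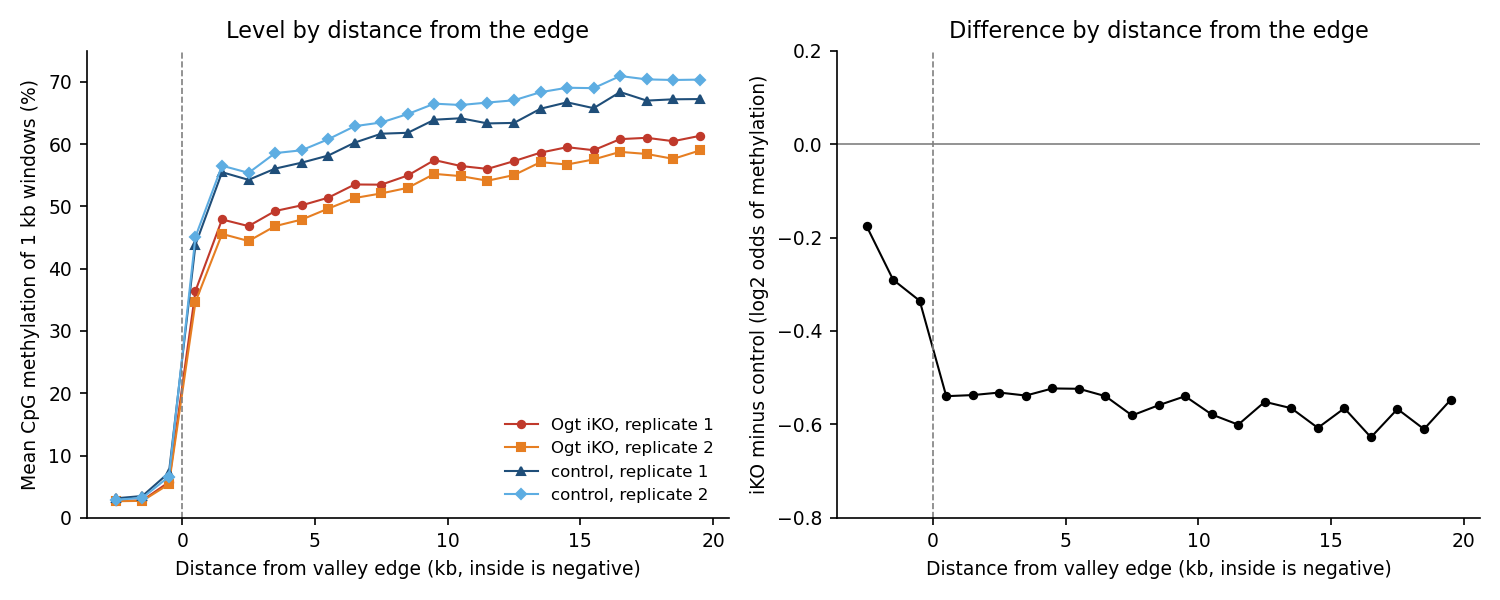
Left, mean CpG methylation (%) of 1 kb windows by distance in kb from the valley edge (dashed line), for each of the 4 libraries. Right, the iKO minus control difference in log2 odds at the same distances. Both iKO libraries run below both controls outside the edge, and the difference goes from -0.18 in the third window inside to -0.54 in the first window outside and stays between -0.52 and -0.63 out to 20 kb.

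The plot of level by distance shows how sharp the edge was. In the first window inside the edge the level was 5.74% and 5.40% in the iKO and 7.25% and 6.61% in the control libraries, a difference of -1.36 points. In the first window outside it was 36.4% and 34.7% against 43.9% and 45.2%, a difference of -8.95 points. Differences between windows further out ranged from -8.64 to -9.93 points. A valley's windows held a median of 29 CpGs at the edge and 12 in the first window outside.

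How far the low level reached in each library restates the level difference at the edge, since the ends were set on the mean of the 4 libraries, and is given as a description. Of 724 first windows outside a valley, 11.3% and 11.7% were under 15% in the iKO libraries against 4.56% and 5.11% in the controls. Counting outwards while windows stayed under the limit, a valley gained 0.359 and 0.315 windows in the iKO and 0.107 and 0.154 in the control libraries. With all libraries thinned to the same number of reads the gains were 0.310 and 0.375 against 0.109 and 0.154. Conversely, 0.242 and 0.214 windows per valley were at or over the limit inside the run in the iKO libraries, against 0.445 and 0.362 in the controls.

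Taken over all valleys, windows with a promoter were less methylated than the others. They stood at 1.86% and 1.85% in the iKO and 2.36% and 2.10% in the control libraries (493 windows). The 1799 windows without a promoter stood at 4.28% and 4.13% against 5.31% and 4.88%. The 2 sets were not matched by valley, and 104 valleys held no window with a promoter. Windows of valleys were compared with 32894 windows under the same limit in runs of 1 to 4 windows. Those shorter runs had 4.94% and 4.70% in the iKO and 6.38% and 6.36% in the control libraries, a difference of -1.55 points, where windows of valleys had 3.76% and 3.64% against 4.67% and 4.28%. The gap between the kinds of run was smaller in the iKO libraries by 0.772 points (pooled SD 0.196), and the groups did not overlap. With members selected on the controls alone this gap changed by 0.192 points and the groups overlapped (exact permutation p = 0.667), and with members selected on the iKO libraries alone it changed by 1.43 points.

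Valleys over the listed developmental transcription factor genes differed from the rest, which is the class with no gene of the 7 lists and still holds other factors, such as Pou5f1, Ebf3, Tfap2b, Runx1 and Myc. In the 78 with a gene of the 7 lists, the interior level was 3.506% and 3.502% in the iKO libraries against 3.42% and 2.91% in the controls. In the other 306 it was 2.74% and 2.68% against 3.61% and 3.36%. The former were thus level or slightly higher in the iKO libraries (0.34 points, pooled SD 0.26), and the latter were lower (-0.77 points, pooled SD 0.13). The difference between the classes, taken within each library, was 0.764 and 0.825 points in the iKO and -0.188 and -0.453 in the control libraries. It moved by 1.12 points between the groups (pooled SD 0.136), with no overlap. The slightly higher interior level of the 78 was not stable by itself: it was -0.108 points when members were selected on the iKO libraries alone, and 0.0857 points without control replicate 2, against 0.599 without control replicate 1. Its groups also overlapped with windows shifted by 500 bases (0.18 points, exact permutation p = 0.667) and with members selected on alternate CpGs and measured on the others (0.181 points, exact permutation p = 1). The difference between the classes kept its direction in all 23 alternatives, between 0.692 and 2.32 points.

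The classes also differed at the borders. Around the 78 transcription factor valleys the border level was 35.4% and 33.8% in the iKO libraries against 37.2% and 37.8% in the controls, a difference of -2.86 points (pooled SD 0.85). Around the other 306 it was 42.2% and 40.1% against 51.2% and 52.3%, a difference of -10.6 points (pooled SD 1.19). The gap between the classes changed by 7.77 points (pooled SD 0.365), and its log2 odds by 0.44 (pooled SD 0.02), where the gap inside the valleys changed by 0.53 (pooled SD 0.07). At 10 to 20 kb the same classes differed less, with -7.26 points around transcription factor valleys and -9.36 around the others, a change of 2.09 points (pooled SD 0.729). The border level was higher in the iKO mean at 25 of the 78 (32.1%) and at 20 of the 306 (6.54%). First windows outside were under 15% in 8.55% and 10.5% of cases in the iKO and 5.26% and 10.5% in the control libraries around transcription factor valleys, where the groups touch. Around the others they were so in 12.1% of cases in each iKO library and in 4.37% and 3.67% in the controls.

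**Figure D2:**
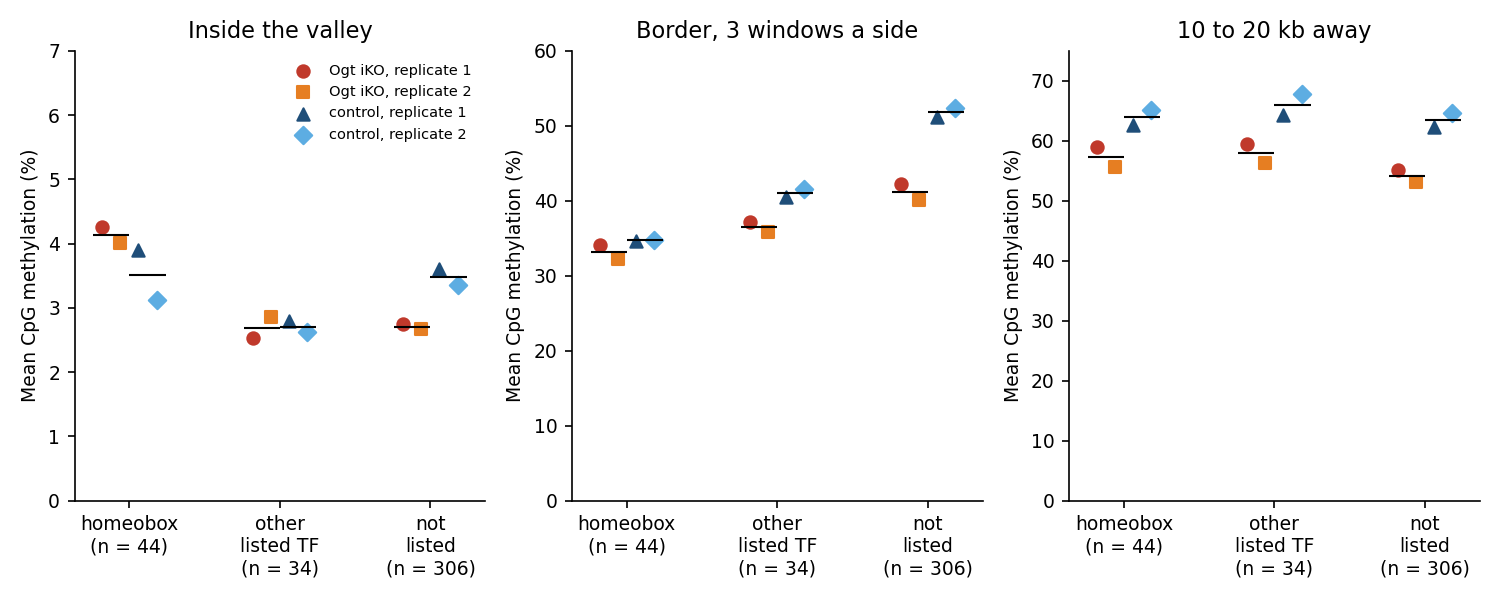
Mean CpG methylation (%) of valleys with a homeobox gene, with a gene of another of the 7 transcription factor lists (other listed TF) and with no gene of these lists (not listed), inside the valley, at its border and 10 to 20 kb away. Each point is 1 library, bars are means of 2, and n counts valleys. At the border the homeobox class has 34.0% and 32.2% against 34.6% and 34.8%, while the class with no listed gene has 42.2% and 40.1% against 51.2% and 52.3%.

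Transcription factor valleys also had more CpGs, at a median of 51.0 per kb against 43.4, and a lower border level in the controls. The comparison was therefore repeated within strata of these. Border windows of transcription factor valleys held more CpGs too (median 15.8 per window against 12.2), and no strata were made by that. Among the tertile of valleys with the most CpGs per kb, the border difference in log2 odds was -0.25 for 38 transcription factor valleys and -0.55 for 90 others. In the middle tertile it was -0.07 and -0.57, for 33 and 94 valleys. In the tertile with the fewest, with 7 and 122 valleys, it was -0.27 and -0.71. Among valleys whose border level was under the median over valleys, it was -0.10 for 59 and -0.62 for 133. Among those at or over it, it was -0.42 for 19 and -0.68 for 173. In each of these strata the class gap in the iKO libraries lay apart from that in the controls, and the same held inside the valleys and among runs of 5 and of more windows.

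Within the 78, homeobox genes held 44 valleys. In these the interior was 4.25% and 4.00% in the iKO and 3.90% and 3.13% in the control libraries, and the border 34.0% and 32.2% against 34.6% and 34.8%, a border difference of -1.58 points (pooled SD 0.92). Both iKO libraries were above both controls inside 15 of the 44 valleys and below them in 3. Over all 384 valleys they were above in 50 and below in 120, and above in 27 of the 306 without a listed gene. Over the region table described below, both iKO libraries lay above both controls in 1.54% of features and below in 59.1%. At their borders, both iKO libraries were below both controls in 14 of the 44 and above them in 6. The 34 valleys with a factor of the other lists lay in between, with a border difference of -4.52 points (pooled SD 0.85).

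**Figure D3:**
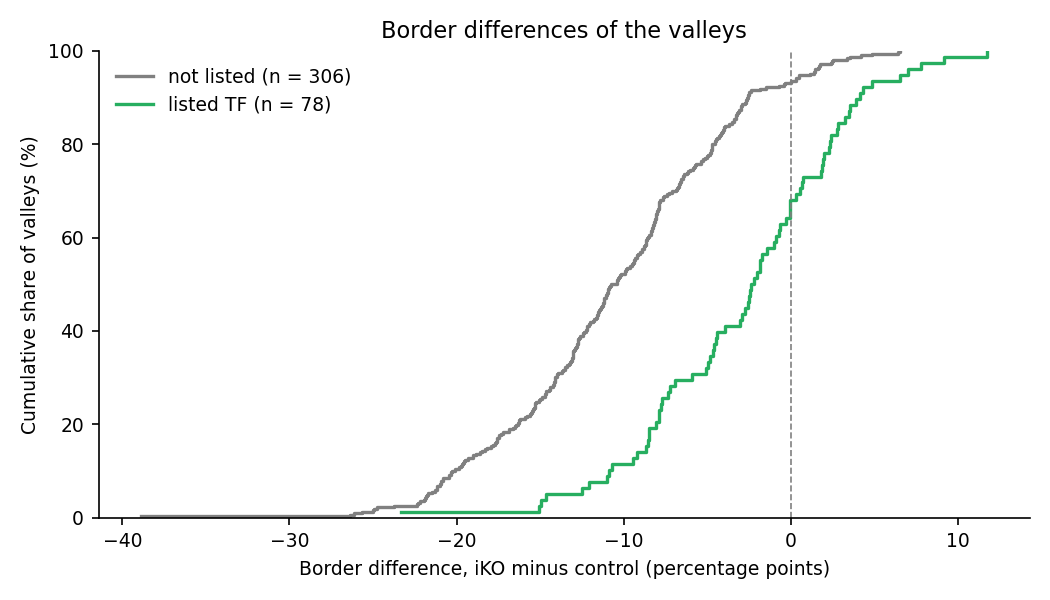
Cumulative share of valleys (%) by border difference, iKO minus control, in percentage points, for 78 valleys with a gene of the 7 transcription factor lists (listed TF) and 306 without (not listed). The dashed line marks no difference: 25 of the 78 and 20 of the 306 lie to its right.

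Single valleys were tested with a quasi-binomial model of methylated and total reads. It was fitted to one table of 464729 features (the valleys, their borders, their flanks and all other autosomal windows in blocks of 5), with dispersions moderated by limma and Benjamini-Hochberg adjustment over the whole table. The dispersion of each feature was drawn strongly to one shared over the table (82.7 prior degrees of freedom). A valley's own spread between replicates thus counted for little in its p. At an adjusted p under 0.05, 17 valleys were lower in iKO and 4 higher. Of all features tested, 8.26% were called lower and 0.0187% higher, against 4.43% and 1.04% of valleys. These shares were not reached at equal power. In the simulation described below, at odds of 0.25 of the control, the model recovered 28 of 50 blocks and 8 of 50 valleys. The borders of 111 valleys were called lower (28.9%) and 2 higher, and the flanks of 271 lower (70.6%). edgeR's quasi-likelihood test called 18 valleys, 56 borders and 15 flanks. limma on logit levels called 0 of each, with 68 valleys, 82 borders and 29 flanks at an unadjusted p under 0.05. It also called 0 features in the simulation described below, where changes had been put in. Without control replicate 2 the quasi-binomial model called 4 valleys, 24 borders and 72 flanks, and without iKO replicate 2 it called 4, 35 and 113.

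The 17 decreases included 1 at a gene of the transcription factor lists, the homeobox gene Msx1. Genes of these lists held 78 of the 384 valleys (20.3%). Of these 78 valleys 1.28% were called lower, against 5.23% of the other 306. At Hsp90aa1, a cytosolic chaperone (chr12:110693001-110699000), the level was 2.14% and 2.24% in the iKO libraries against 7.05% and 7.83% in the controls. This decrease of 5.25 points had close replicates (pooled SD 0.392), an adjusted p of 0.00329 in the limma-moderated model and 0.00545 with edgeR, and the call was lost without control replicate 2 (adjusted p 0.0805). At Zfp532, a zinc finger gene, levels were 3.51% and 2.36% against 11.2% and 5.66%, so the controls were far from each other (adjusted p = 0.00285, limma-moderated, with 0.13 without control replicate 1 and 0.11 without iKO replicate 2). At Ndufaf3 and Dalrd3 (chr9:108566001-108571000) levels were 3.501% and 2.29% against 4.97% and 10.2%. Ndufaf3 encodes an assembly factor of respiratory complex I, and the valley also holds the microRNA genes Mir191 and Mir425. Its decrease of 4.70 points was 2.07 points without control replicate 2 (adjusted p 0.0172 and 0.44, limma-moderated), and the call was also lost without iKO replicate 2 (adjusted p 0.21).

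At Zbtb8a, a gene of the zinc finger and BTB family (chr4:129373001-129379000), levels were 3.75% and 1.74% against 5.77% and 8.01%. Cnn3, which encodes an actin-binding calponin, had 0.986% and 1.47% against 6.52% and 3.24%. Rcc2, which encodes a protein of chromosome segregation, had 1.46% and 3.71% against 8.14% and 4.34%. Without control replicate 1 the difference went from -3.65 to -2.02 points at Cnn3 and from -3.65 to -1.75 at Rcc2. The call at Cnn3 was lost whichever library was left out, that at Rcc2 without control replicate 1 or iKO replicate 1, and that at Zbtb8a without the second replicate of either group.

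Zfp219 and Tmem253 shared a valley with 1.84% and 2.02% in the iKO and 5.54% and 5.14% in the control libraries. Gnas, the gene of a stimulatory G protein subunit, had 1.70% and 4.12% against 7.29% and 5.34%. Cisd1 (a mitochondrial outer membrane protein) and Ipmk (an inositol phosphate kinase) had 1.502% and 1.03% against 3.64% and 5.58%. The calls at Zfp219 and Gnas were lost whichever library was left out, and that at Gnas also with edgeR (adjusted p = 0.0552), its difference going from -3.40 to -2.19 points without iKO replicate 1. The call at Cisd1 was lost without either iKO library and without control replicate 2. In limma on logit levels none of these 9 passed, but that test also called 0 features in the simulation, so this does not weigh on them. In these 9 valleys the groups do not overlap, which the rule for naming them required. A further 7 called lower were at Slc38a2, Rif1, Elovl6, Tnpo2, Msx1, Ptprg and Ctbp2. At Slc38a2 the groups overlap. All 17 had a flank called lower, and 9 a border called lower, against 70.6% and 28.9% of all valleys. These calls are those of the limma-moderated model, and edgeR called only 15 flanks over all valleys.

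Of the 4 called increases, 3 lay at homeobox genes, which held 44 of the 384 valleys. Of these 44, 1 was called lower. At Six3, a homeobox gene of forebrain and eye (chr17:85620001-85626000), the level was 5.70% and 7.73% in the iKO libraries against 2.72% and 3.27% in the controls. The increase of 3.72 points had a pooled SD of 1.05 (adjusted p = 0.0475, limma-moderated; 0.0575 with edgeR). At Dlx1, a homeobox gene of forebrain interneurons (chr2:71528001-71533000), levels were 5.84% and 5.27% against 2.75% and 2.31%. At Otx1, a homeobox gene of the anterior brain (chr11:21993001-21999000), they were 3.74% and 5.79% against 2.52% and 1.23%. At Smad7, an inhibitor of TGF-beta signalling, they were 5.18% and 5.13% against 2.84% and 2.01%.

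The calls of these 4 were near the threshold. With edgeR, Otx1 alone passed (adjusted p = 0.041), with Dlx1 at 0.0632 and Smad7 at 0.0675. Leaving out control replicate 2 ended all 4 calls in the limma-moderated model, with adjusted p of 0.18 at Six3, 0.26 at Dlx1, 0.36 at Otx1 and 0.25 at Smad7. Leaving out iKO replicate 2 ended them too, at 0.34, 0.18, 0.36 and 0.18. The calls at Six3 and Dlx1 were lost whichever library was left out, and that at Smad7 also without iKO replicate 1. A neighbouring valley at Otx1 and Ehbp1 went the other way, with 2.52% and 1.82% in the iKO and 3.80% and 4.29% in the control libraries. A neighbouring valley at Six3 had 3.14% and 3.61% against 2.26% and 2.72%. Neither neighbour passed the test, and both were chosen after their values were seen.

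**Figure D4:**
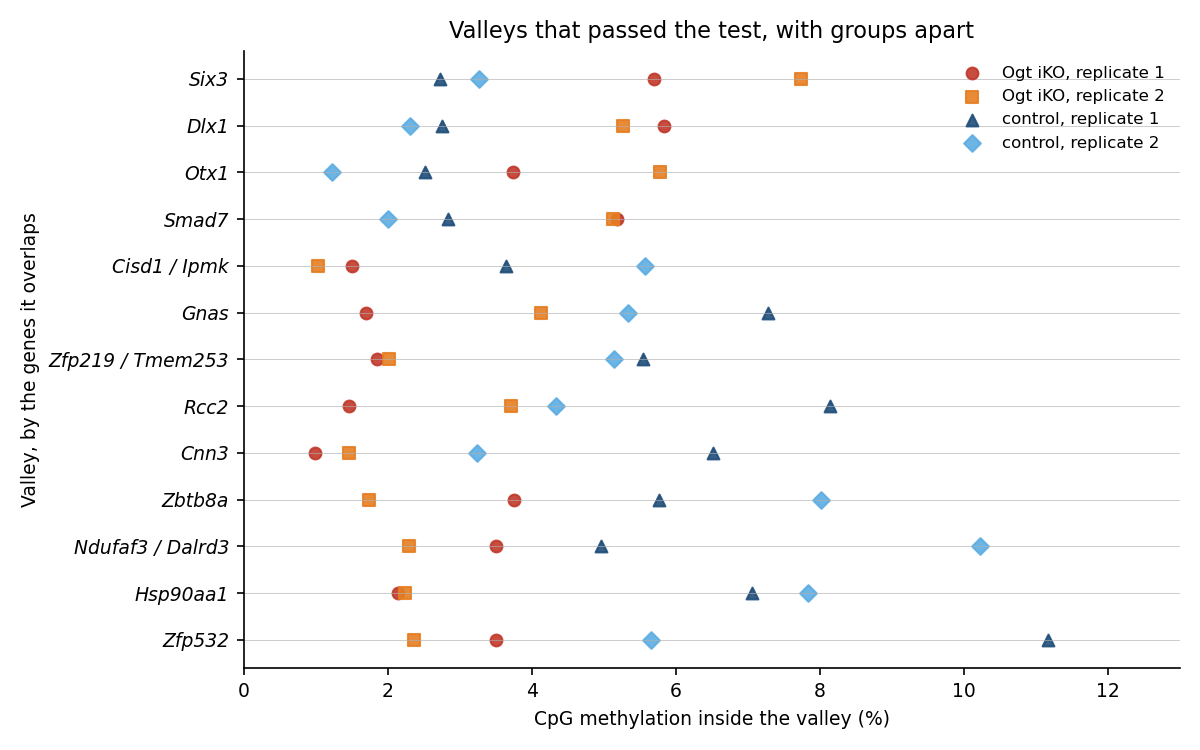
CpG methylation (%) inside 9 valleys called lower and the 4 called higher, each point 1 library, rows labelled by the genes that the valley overlaps. In the 4 upper rows (Six3, Dlx1, Otx1, Smad7) both iKO libraries lie to the right of both controls, and in the 9 rows under them to the left. The rule that picked these valleys required the groups to be apart.

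Some increases that were not called were larger than called ones. The largest of those not called were at Tfap2b, at histone genes, at Tbl1xr1, at Nkx6-1 and at a run with the noncoding gene 8430419K02Rik. That at Tfap2b (3.83 points) was above that at Six3 (3.72 points), the largest called. Those at the histone genes and Tbl1xr1 (2.79 and 2.76 points) were above that at Smad7 (2.73 points). Tfap2b, a factor of neural crest and kidney, had 6.69% and 11.03% in the iKO and 6.07% and 4.00% in the control libraries (adjusted p = 0.19, limma-moderated). The valley of H4c8, H2ac10 and H3c8, genes of core histones, had 4.801% and 4.93% against 2.18% and 1.98%. At Tbl1xr1, a subunit of a corepressor complex, 6.27% and 2.68% stood against 1.88% and 1.55%, while the border fell by 20.1 points. Nkx6-1, a factor of pancreas and neural tube, had 4.93% and 4.05% against 1.80% and 2.07% (adjusted p = 0.0648, limma-moderated).

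The 2 borders called higher, named after their values were seen, were those of homeobox genes, which held 44 of the 384 valleys. Around Nkx2-2, a factor of ventral neural tube and pancreas, the border was 14.6% and 11.9% in the iKO libraries against 7.95% and 5.60% in the controls (adjusted p = 0.0336, limma-moderated). Around Onecut2, a factor of liver and nervous system, it was 22.8% and 22.9% against 16.6% and 10.9% (adjusted p = 0.0132, limma-moderated). Neither border was called with edgeR, which called 0 borders higher, nor without either iKO library or control replicate 2. Of the 113 borders called, 7 belonged to the 78 transcription factor valleys and 106 to the other 306. The largest border decrease, also chosen after its value was seen, was at Cacybp, with 36.2% and 27.6% against 63.6% and 78.0%.

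**Figure D5:**
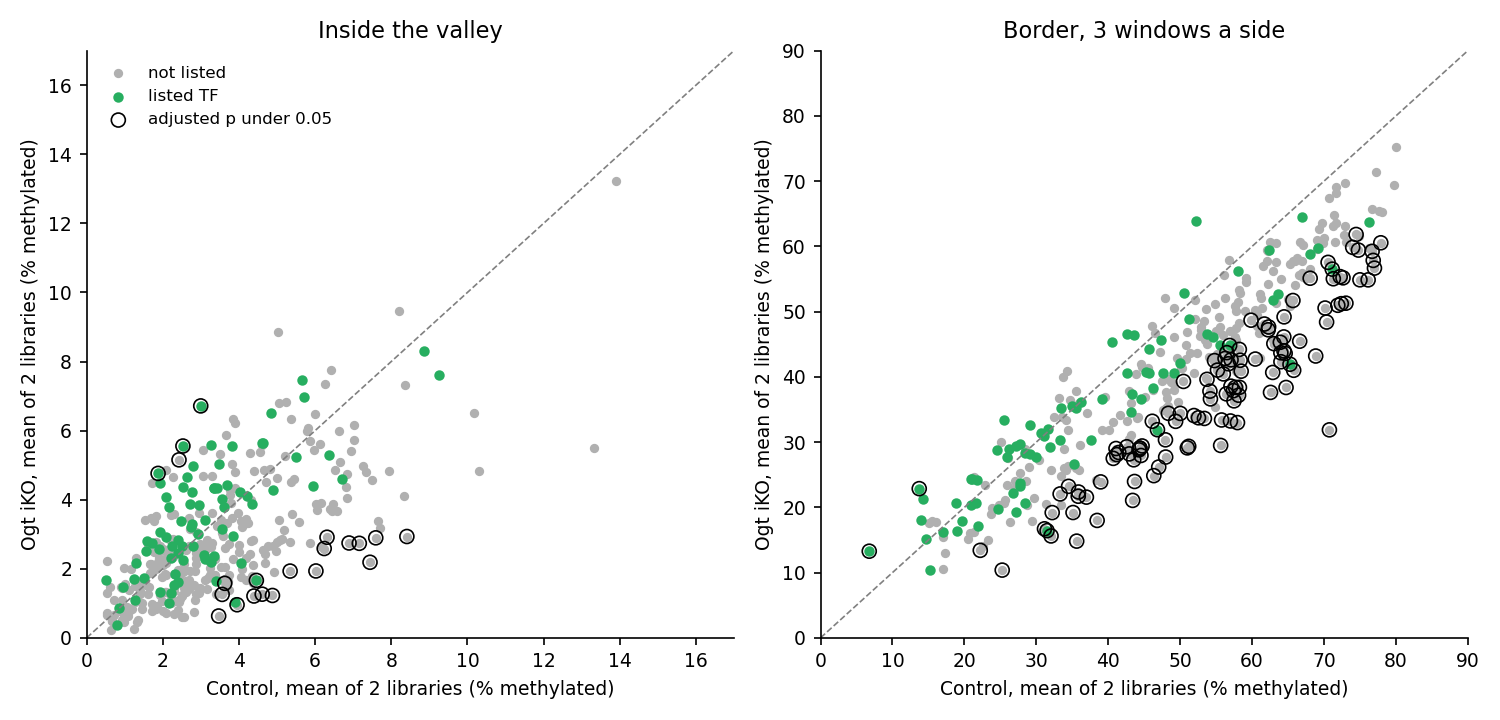
Mean CpG methylation (%) of the 2 iKO libraries against that of the 2 controls for each of 384 valleys, inside (left) and at the border (right), with valleys of the transcription factor lists (listed TF) in green and valleys with an adjusted p under 0.05 ringed. The dashed line marks equal levels. Inside, 244 valleys lie under the line and 140 above it, and at the border 339 lie under it and 45 above.

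7 valleys overlapped genes of the pluripotency list, and 0 were called inside by the limma-moderated model or by edgeR, with 0 at an unadjusted p under 0.05. Over all valleys 5.47% were called inside, so 0 of 7 is near that share. A border was called lower at 2 of the 7 (28.6%), against 28.9% of all valleys. Pou5f1, the gene of Oct4 (chr17:35502001-35510000), had 4.16% and 1.54% in the iKO and 5.69% and 4.59% in the control libraries, with groups apart (adjusted p = 0.23, limma-moderated). Sox2 (chr3:34646001-34657000) had 3.22% and 2.81% against 3.21% and 2.66%, which overlap. Sall4, a zinc finger factor of the stem cell state, had 1.44% and 1.19% against 1.97% and 1.86%. Its border was called lower, at 32.3% and 31.5% against 46.3% and 47.4% (adjusted p = 0.00305, limma-moderated). The border of Tdgf1, which encodes a coreceptor of Nodal, was called lower as well, at 27.5% and 15.6% against 37.8% and 36.2% (adjusted p = 0.01, limma-moderated). At Tbx3 and in both valleys of Otx2 neither interior nor border was called.

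Of the 12 valleys with a secreted signal, antagonist or receptor, 0 were called inside by the limma-moderated model or by edgeR, with 0 at an unadjusted p under 0.05, and 2 borders were called lower (16.7%), against 5.47% and 28.9% of all valleys. These were at Nodal, with a border of 31.6% and 27.2% in the iKO and 45.3% and 44.2% in the control libraries, and at the valley of Fgf11, a gene of the fibroblast growth factor family. As a class their interior was 3.41% and 2.96% against 3.79% and 3.32%, which overlap, and their border 47.0% and 44.1% against 52.3% and 53.6%.

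Among the longest valleys, Ebf3, a helix-loop-helix factor of neurons (chr7:137309001-137323000, 828 CpGs), had 3.03% and 3.73% in the iKO and 4.50% and 3.60% in the control libraries. Ctbp2, which encodes a transcriptional corepressor, had 1.19% and 1.97% against 4.31% and 2.95% and was called lower (adjusted p = 0.0329, limma-moderated; 0.059 with edgeR), a call lost whichever library was left out. Rhof (a small GTPase) and Setd1b (a histone methyltransferase) shared 13 windows with 1.83% and 2.79% against 1.54% and 1.03%. Bahcc1 had 1.45% and 2.18% inside, against 2.42% and 2.32%, and a border called lower by 20.8 points. Of the other long valleys, at Tnrc18, Trim71, Sox2, Lhx5 and Sall3, the groups did not overlap at Trim71 alone, with 1.597% and 1.30% against 2.42% and 2.71%.

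The 3 least methylated valleys were at Smarca2 (a chromatin remodelling ATPase), Pcbp1 (an RNA-binding protein) and Trim8, with means over the 4 libraries down to 0.440%. The highest mean, 13.6%, was that of the ribosomal RNA run, at 16.2% and 10.2% in the iKO and 15.9% and 11.8% in the control libraries. A run of 51 CpGs without a gene (chr9:58272001-58277000), with only 138 to 215 reads per library, had 5.88% and 5.12% against 14.5% and 12.2%, a decrease of 7.84 points that was not called (adjusted p = 0.0841, limma-moderated). At single windows, 1 of 2292 in valleys was called, against 0.140% lower and 0.000643% higher of all 1 kb windows. It lay at Mn1 (chr5:111417001-111418000), where 26 of 203 reads in control replicate 2 and 0 of 242, 172 and 135 reads in the other libraries were methylated. This call rests on 1 library.

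The edges of the selection rule passed through valleys much like the members. Raising the limit from 15% to 16% added 38 runs, the longest of which lay at Gli2, Prox1 and beside the valley of Trim71. Gli2 missed the limit by a window of 15.07% and had 2.61% and 4.90% in the iKO and 2.38% and 4.70% in the control libraries. Hmx3, just inside, had a highest window of 14.97% and 5.17% and 3.67% against 3.82% and 3.54%. A further 627 runs had exactly 4 windows.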

How the data were processed

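DNA of 4 libraries was sequenced after bisulfite conversion. Per the names of the deposited files and the submitters' processing notes, the authors used BSMAP with mm10 (Picard is also named), merged the strands of each CpG, and deposited methylated and total read counts. A deposited column of expected counts, the C or T reads corrected for C/T variants per the file headers, served as an alternative depth. Versions are not given in the sources used here.

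Levels were methylated over total reads pooled per region. Windows, runs, borders and flanks were built with NumPy 2.4.6 and pandas 2.3.3, and figures with matplotlib 3.10.9. Windows of other runs of 5 or more were left out of borders and flanks. Library means were compared by two-sided exact permutation. Regions and 1 kb windows were tested by a quasi-binomial logistic model in R 4.3.3 with limma 3.58.1 (dispersion at least 1, Benjamini-Hochberg). Alternatives were edgeR 4.0.16 and a limma fit of logits, for which 0.5 was added to each read count. Positions listed inside promoters all fell on a CG (393460 of 393460). Genes are RefSeq spans of GRCm38.p6, without exons, introns or UTRs, and a valley is named by every protein-coding gene it overlaps.

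On simulated data drawn from the region table of 464729 features, with 200 changed, the model called 41, of which 1 was unchanged. Simulated features had a nearly constant excess spread and no shift shared by a library, whereas the real libraries differed in level. The 1 wrong call thus does not give the error rate of the real calls. With only 200 features changed, the Benjamini-Hochberg adjustment was also stricter than in the real table, where the model called 8.26% of features lower. The shares recovered therefore do not carry over to the real data. For blocks whose odds of methylation were set to 0.25 of the control the model recovered 28 of 50, and at 0.5 it recovered 3 of 50. For valleys at the same settings it recovered 8 of 50 and 1 of 50. edgeR recovered 29 and 5 of these valleys and 28 and 2 of these blocks, with 9 unchanged features called in the whole table. limma on logit levels recovered 0 of 50 at either setting and called 0 features in the whole table.

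Members, gene lists and tests were chosen with earlier results of these data known. The rule for named valleys took the 10 longest, the 10 largest called decreases, the 5 largest increases called and not called, the 3 highest and 3 lowest mean levels, and pluripotency genes. Those chosen by their difference needed 200 reads in each library and groups apart, which the others did not. Alternatives covered read minimum, level limit, run length, window offset, depth, selection by one group, alternate CpGs, weighting, border and flank size, other tests and each library left out. Classes by transcription factor gene were compared after the data were seen. Some valleys that this rule names are not reported here. Sites on sex chromosomes were not used in the comparisons.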

Additional observations from a re-analysis of the deposited data

How the results depend on the processing

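The differences inside valleys, at borders and in flanks, the steps between them and the gap to shorter runs kept their direction under every alternative run, apart from selection on the iKO mean. That selection turned the log2 odds steps, from -0.27 to 0.14 (border minus interior) and from -0.28 to 0.17 (flank minus interior), and the interior difference of transcription factor valleys, from 0.34 to -0.108 points. Interior differences ranged from -2.09 to -0.114 points, border differences from -11.0 to -7.55 and flank differences from -10.2 to -7.69, and the gap to shorter runs changed by 0.192 to 1.43 points. The number of valleys was 240 at a limit of 10%, 591 at 20%, 1007 with 4 windows and 52 with 8. Subtracting the mitochondrial level or leaving out the ribosomal RNA run were added after the data were seen.

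Calls depended on the test. limma on logit levels called 0 valleys, borders, flanks and windows. It also recovered 0 of 50 changed valleys in the simulation at either setting. The simulation changed far fewer features than the quasi-binomial model called here, which makes the adjustment stricter. It therefore cannot say how much weight the lack of limma calls carries, and that lack cannot decide between the other tests. edgeR called 56 borders and 15 flanks, and 0 windows. With a difference of at least 10 points, 110 borders, 147 flanks, 0 windows and 0 valleys were left, the largest difference inside a valley being -7.84 points. Leaving out 1 library at a time, 4 to 14 valleys were called, 24 to 85 borders, 72 to 243 flanks and 0 windows. With the replicate block, the quasi-binomial model called 10 valleys, all lower, and 0 windows; the block is only a shared number, since same-numbered deviations correlated at -0.007 over all windows. Leaving out a library leaves its group with 1, so the dispersion rested on the other group and on the value shared over the table. Of 15 named valleys called, 10 stayed called with edgeR, 14 with the corrected depth and 2 to 6 without a library. At about 3 reads per CpG, differences of a few points inside a single valley are near the limit of detection.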

Other observations

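Of the 384 valleys, 29 overlapped no protein-coding gene, and 14 of these overlapped no gene at all. Several lay over genes of transfer RNAs, and others over noncoding genes such as Malat1, a long nuclear RNA (1.02% and 1.79% in the iKO and 3.27% and 3.06% in the control libraries). The genes of miR-124, a microRNA of neurons, lay in 2 of them. The valley of Mir124a-3 had 3.17% and 2.53% against 2.78% and 1.52%, and that of Mir124a-1 had 2.83% and 1.77% against 1.98% and 1.85%. As a class these 29 had 4.65% and 4.56% inside against 5.48% and 5.82%, and a border of 35.1% and 32.1% against 41.4% and 45.6%. Of them, 0 were called inside by the limma-moderated model or by edgeR, with 7 at an unadjusted p under 0.05, and 12 borders were called lower (41.4%), against 5.47% of all valleys called inside and 28.9% with a border called lower.

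The same rule gave 6 runs on the X chromosome, which the comparisons did not use. Among them were 2 runs at Bcor and 1 each at Bcorl1 and Sox3. Bcor and Bcorl1 encode subunits and partners of a Polycomb complex, and Sox3 a developmental factor. At Sox3 the level was 1.67% and 0.862% in the iKO and 1.38% and 1.33% in the control libraries, which overlap. At Bcorl1 it was 3.07% and 3.35% against 2.08% and 1.22%, with both iKO libraries above both controls. The run at chrX:52742001-52747000 went the other way, with 0.775% and 1.46% against 6.56% and 2.61%. In the remaining runs the groups overlapped.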
